A study of Mus musculus with 6 samples.

Results

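The genes of the proteasome were followed in engineered skeletal muscle made from C2C12, a mouse myoblast line that fuses into myotubes. They were taken by name: every row of the count table whose symbol starts with Psma to Psmg followed by a digit, together with Pomp. This gave 51 of the 24421 rows, of which 50 encode subunits, regulators or assembly factors. The remaining row, Psmc3ip, encodes a partner protein of an ATPase subunit that acts in meiotic recombination. It is kept out of the classes of subunits but is counted in the totals over all rows. The cells were embedded in collagen gel strung between artificial tendons and differentiated. They then received tumour necrosis factor alpha, an inflammatory cytokine (TNF-alpha), at 100 ng/mL for 72 h, or phosphate-buffered saline as vehicle. There were 3 TNF-alpha constructs and 3 vehicle constructs, labelled as biological replicates. All 6 derive from 1 cell line, and no label ties them to separate cell batches, so that the p-values speak for the spread among the 6 constructs and not for wider variation. Polyadenylated RNA was sequenced, with 81713008 to 93533748 counts per library. In bulk RNA, fewer cells of a type and less transcript per cell cannot be told apart.

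The proteasome degrades proteins tagged with ubiquitin. Its core particle is a barrel of alpha rings (Psma genes) around beta rings (Psmb genes), and the peptide bonds are cut by the beta subunits encoded by Psmb5, Psmb6 and Psmb7. Interferon-exposed and immune cells replace these with Psmb8, Psmb9 and Psmb10, which form the immunoproteasome and favour peptides for class I molecules. The regulatory particle that caps the core unfolds substrates with a ring of ATPases (Psmc genes) and binds and trims ubiquitin chains with non-ATPase subunits (Psmd genes). Other caps are the activators of the Psme genes, and dedicated chaperones assemble the parts. In skeletal muscle the pathway carries out much of the breakdown of myofibrillar protein, and its activity is known to rise in wasting.

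With TNF-alpha, several transcripts of the ATPase ring and of the catalytic ring were lower. Among the other regulatory-particle and chaperone transcripts, a small set was higher and others were lower. The immunoproteasome transcripts Psmb8 and Psmb9 were scarce in both groups, although Psmb8 rose. The third, Psmb10, averaged 10.1% of the counts of Psmb7 in TNF-alpha and 7.23% in vehicle libraries. Of the 51 rows, 49 passed the filter on low counts, and Psma8 and Psmb9 did not. By edgeR's quasi-likelihood test, with a Benjamini-Hochberg adjusted p under 0.05 over all 15795 genes tested, 7 were higher, 17 were lower and 25 did not pass. Among all genes tested, 27.6% rose and 27.9% fell, so that 55.5% passed in either direction, against 24 of 49 here. Without Psmc3ip, 7 of 48 genes were higher and 16 were lower. The median log2 fold change was -0.07 over the 49 genes and 0.00 over all genes tested. Changes were small: 2 of the 49 passed with at least a 2-fold change, Psmb8 upward and Psmc3ip downward, whereas 17.9% of all genes did. The 3 TNF-alpha libraries lay wholly above the vehicle libraries in 8 of the 49 and wholly below in 22. Over all genes tested the groups were apart in 64.5%, with TNF-alpha above in 32.5% and below in 31.9%.

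**Figure D1:**
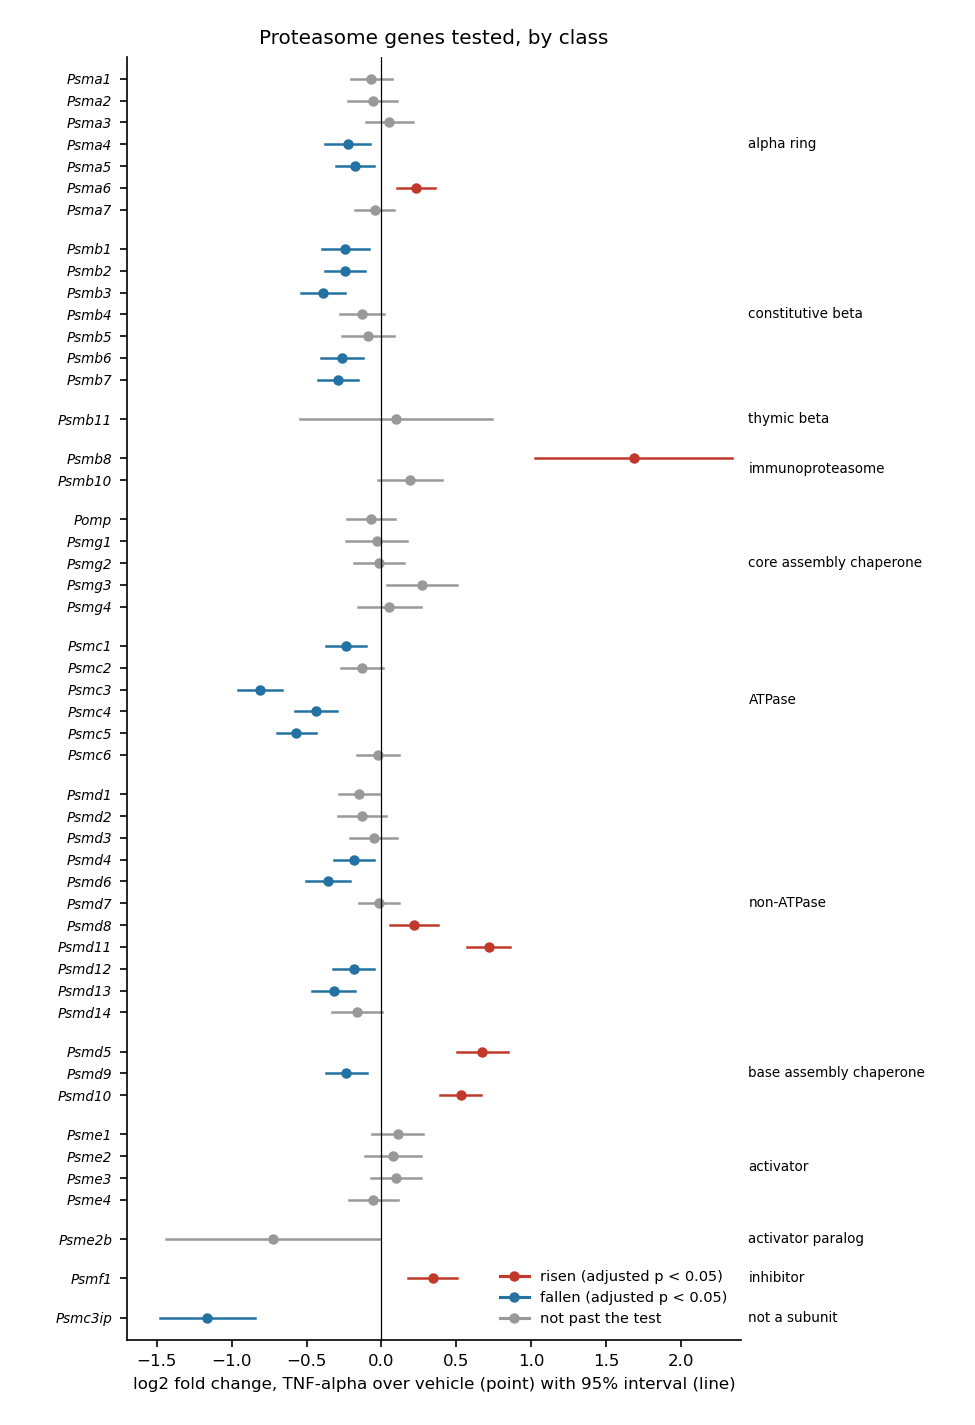
Log2 fold change (TNF-alpha over vehicle) of the 49 proteasome genes tested, with the 95% interval of each, grouped by class and coloured by the edgeR call. Most points lie within 0.5 of 0, Psmc3 stands lowest among the subunits at -0.81, and Psmb8 stands highest at 1.68.

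The constructs were checked against markers of their labelled cell type. Of 7 myotube genes, 5 fell, Myog rose and Acta1 was not past the test, and their summed level was 5358 to 6212 CPM (a gene's counts scaled to a common library size) in TNF-alpha libraries and 9055 to 10606 CPM in vehicle libraries. The summed level of 8 leukocyte markers was 21.1 to 22.8 CPM in TNF-alpha libraries and 5.4 to 5.69 CPM in vehicle libraries. Of the 4 leukocyte markers tested, Cd68, Csf1r and Lyz2 rose and Itgam did not pass. Cd68, a lysosomal protein of macrophages, supplied most of the sum, at 19.8 ± 0.738 CPM in TNF-alpha and 4.81 ± 0.04 CPM in vehicle libraries (SD, n = 3). Csf1r, the receptor for macrophage colony-stimulating factor, had 1.44 ± 0.251 CPM in TNF-alpha and 0.246 ± 0.0283 CPM in vehicle libraries (adjusted p = 5.32e-05). Lyz2, a lysozyme of myeloid cells, had 0.313 ± 0.0967 CPM in TNF-alpha and 0.13 ± 0.0284 CPM in vehicle libraries (adjusted p = 0.0235, and up to 0.0825 over the alternatives). Among those too low to test, Ptprc, the pan-leukocyte marker CD45, had 0 counts in all 3 TNF-alpha libraries and 2 to 4 counts in vehicle libraries, and Adgre1 and Cd3e had 0 to 2 counts in any library. Endothelial markers summed to 1.32 to 1.59 CPM in TNF-alpha and 2.49 to 3.63 CPM in vehicle libraries. Tek carried that difference, at 0.612 ± 0.159 CPM in TNF-alpha and 2.451 ± 0.535 CPM in vehicle libraries, whereas the means of Pecam1, Cdh5 and Kdr were higher in TNF-alpha libraries; Pecam1 and Cdh5 did not pass the test and Kdr was too low to test. Of the fibroblast markers, Dcn and Pdgfra rose, Col1a1 fell and Thy1 was too low to test. Their sums were 5966 to 6319 CPM in TNF-alpha and 2174 to 2568 CPM in vehicle libraries. Dcn supplied most of these sums, at 6022 ± 201 CPM in TNF-alpha and 2029 ± 265 CPM in vehicle libraries. Col1a1 had 108 ± 8.65 CPM in TNF-alpha and 273 ± 64.1 CPM in vehicle libraries. The myoblast markers summed to 62.7 to 67.9 CPM in TNF-alpha and 100.1 to 119.4 CPM in vehicle libraries. Myod1 supplied most of that sum, at 51.3 ± 3.39 CPM in TNF-alpha and 98.8 ± 11.2 CPM in vehicle libraries. Myod1 and Pax7 fell, whereas Myf5 rose with overlapping groups (adjusted p = 0.0413, and up to 0.127 over the alternatives). The part of any such shift in the results for proteasome genes was not tested.

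The ATPase ring held the largest falls among the subunits. It had 4 lower genes, 0 higher genes and 2 that did not pass, with a median log2 fold change of -0.34. The lower share was 66.7% of these 6 genes, against 27.9% of all genes tested, of which 55.5% passed in either direction. Psmc3 (GRCm38 chromosome 2, 91054009 to 91066369, plus strand), whose product is Rpt5, an ATPase that docks into the core through its tail, had 185, 194 and 191 CPM in TNF-alpha libraries, against 347, 343 and 311 CPM in vehicle libraries. All TNF-alpha values lay far below all vehicle values, a fall to 190.1 ± 4.23 CPM in TNF-alpha libraries, against 334 ± 19.6 CPM in vehicle libraries (SD, n = 3). The log2 fold change was -0.81 with a standard error of 0.07 (adjusted p = 1.61e-05), and errors given after log2 fold changes are standard errors throughout. Psmc5, encoding Rpt6, had 117, 109.6 and 112 CPM in TNF-alpha and 170.2, 171 and 159.7 CPM in vehicle libraries. These groups did not overlap either (log2 fold change -0.57 ± 0.06, adjusted p = 6.41e-05). On the log2 scale Psmc4, encoding Rpt3, fell by 0.44 ± 0.06 (adjusted p = 3.89e-04), and Psmc1, encoding Rpt2, fell by 0.24 ± 0.06 (adjusted p = 0.00844). Psmc2, encoding Rpt1, had a log2 fold change of -0.13 (95% interval -0.27 to 0.01, adjusted p = 0.108). For Psmc6, encoding Rpt4, it was -0.02 (-0.16 to 0.12, adjusted p = 0.775). The 4 falls held in all 15 alternative analyses. Exons of Psmc3 share 97 bases with Slc39a13 on the opposite strand, and no source used here says whether the counting used strand.

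Because the subunits are built into the ring in equal numbers, their levels were also compared per length of transcript. In vehicle libraries Psmc3 stood apart at 204 CPM per kb, whereas the other 5 ATPase genes had 83.8 to 127 CPM per kb. In TNF-alpha libraries Psmc3 had 116 CPM per kb and the others 62.4 to 98.9 CPM per kb. The highest level was 1.86 times the lowest in TNF-alpha libraries and 2.44 times the lowest in vehicle libraries. Spread among the 6 genes, as the standard deviation of log2 CPM per kb within a library, was 0.267, 0.324 and 0.31 in TNF-alpha libraries and 0.489, 0.505 and 0.481 in vehicle libraries, so the groups did not overlap. The difference of -0.19 had an exact two-sided permutation p of 0.1, the smallest that 3 against 3 libraries allow (0.2 adjusted over the 4 classes compared). The comparison of spreads was not planned beforehand. It includes the fall of Psmc3 given above and is not separate support for it. The same spread was 0.333 ± 0.0142 in TNF-alpha and 0.381 ± 0.0076 in vehicle libraries over the 7 constitutive beta genes (SD, n = 3; exact p = 0.1). It was 0.686 ± 0.0154 and 0.664 ± 0.0275 over the 7 alpha genes (exact p = 0.3), and 0.579 ± 0.0012 and 0.571 ± 0.0108 over the 11 non-ATPase subunits (exact p = 0.4).

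**Figure D2:**
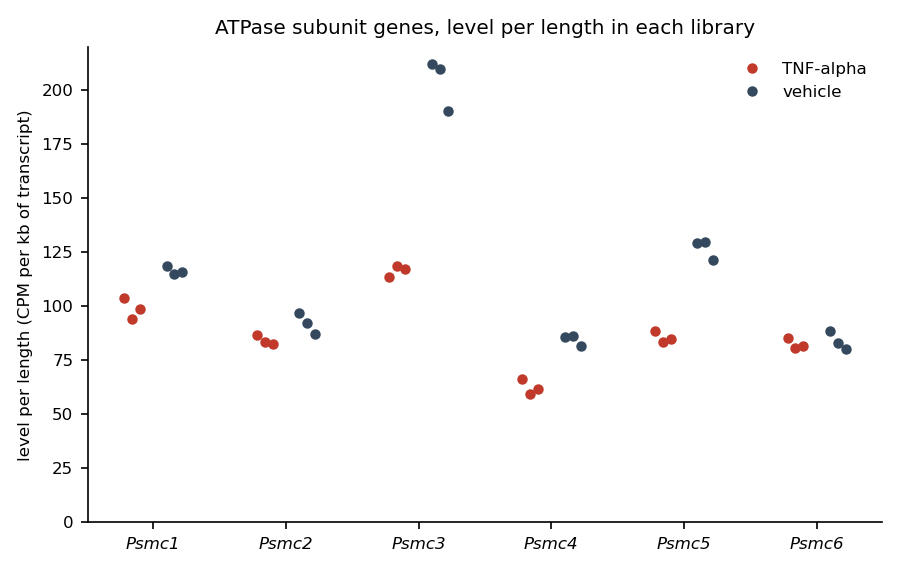
Level per length (CPM per kb of transcript) of the 6 ATPase genes in each library, with TNF-alpha points left of vehicle points. Psmc3 is near 204 CPM per kb in vehicle libraries and near 116 CPM per kb with TNF-alpha, closer to the other 5 genes.

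In the catalytic ring, 5 of the 7 constitutive beta genes were lower, 0 were higher and 2 did not pass (median log2 fold change -0.24). The lower share was 71.4%, against 27.9% of all genes tested, of which 55.5% passed in either direction. Psmb7, which encodes the trypsin-like subunit, had 125, 122 and 124 CPM in TNF-alpha libraries and 157, 153 and 143 CPM in vehicle libraries (log2 fold change -0.29 ± 0.06, adjusted p = 0.00261). Psmb6, encoding the caspase-like subunit, had 122, 123 and 123 CPM in TNF-alpha and 155, 149 and 138 CPM in vehicle libraries (-0.26 ± 0.06, adjusted p = 0.0056). For both genes the TNF-alpha libraries were nearly equal to each other and below every vehicle library. Psmb5, the chymotrypsin-like subunit and target of bortezomib, had 81.6, 75.9 and 78.1 CPM in TNF-alpha libraries and 86.2, 89.6 and 74.9 CPM in vehicle libraries. These groups overlapped (-0.09, 95% interval -0.26 to 0.08, adjusted p = 0.34). Of the non-catalytic beta genes, Psmb3 fell by 0.39 ± 0.06 (adjusted p = 9.24e-04), Psmb2 by 0.24 ± 0.06 (adjusted p = 0.00763) and Psmb1 by 0.24 ± 0.07 (adjusted p = 0.0148). The adjusted p of Psmb1 was 0.0501 without TNF-alpha replicate 3. Psmb4 had a log2 fold change of -0.13 (-0.28 to 0.02, adjusted p = 0.119). Psmb7 overlaps 405 exon bases of Nek6 on the opposite strand, and its counts had decimals in all 6 libraries.

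The alpha ring, which gates entry to the barrel, held calls in both directions. Of its 7 genes tested, 1 was higher, 2 were lower and 4 did not pass (median log2 fold change -0.06). That is 14.3% higher and 28.6% lower, against 27.6% and 27.9% of all genes tested. In either direction 42.9% passed, against 55.5% of all genes tested. Psma6 had 148, 139 and 136 CPM in TNF-alpha libraries and 121, 119 and 121 CPM in vehicle libraries, with no overlap (0.23 ± 0.06, adjusted p = 0.00741). Psma4 had 97.0, 95.5 and 94.4 CPM in TNF-alpha and 121, 106 and 107 CPM in vehicle libraries (-0.22 ± 0.07, adjusted p = 0.0182). Psma5 had 104, 101 and 105 CPM in TNF-alpha and 121, 117 and 112 CPM in vehicle libraries (-0.18 ± 0.06, adjusted p = 0.0232). Neither gene's groups overlapped, but both calls were lost when single libraries were left out. The adjusted p of Psma4 was 0.0647 without TNF-alpha replicate 3 and 0.051 without vehicle replicate 1. That of Psma5 was 0.0715 and 0.0612 with TNF-alpha replicates 2 and 3 left out in turn, and 0.0702 and 0.055 with vehicle replicates 1 and 2 left out in turn. With either TNF-alpha replicate 3 or vehicle replicate 1 left out, 0 alpha genes passed downward. Psma4 shares 114 exon bases with AY074887 on the opposite strand, and its counts had decimals in all 6 libraries. Psma1, Psma2, Psma3 and Psma7 had log2 fold changes of -0.07 to 0.05. Psma8, the alpha subunit of spermatogenic cells, had 0 counts in all 6 libraries, which allows at most 0.0321 to 0.0367 CPM per library by counting error.

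Apart from Psmb8, the largest rises among the proteasome genes tested were in the non-ATPase family. Of the 11 genes of structural subunits, 2 were higher, 4 were lower and 5 did not pass (median log2 fold change -0.15). That is 18.2% higher and 36.4% lower, against 27.6% and 27.9% of all genes tested. The share past the test, 54.5%, was near the 55.5% of all genes tested. Psmd11 (chromosome 11, 80428615 to 80473248, plus strand), encoding Rpn6, a lid subunit that clamps the regulatory particle to the core, had 198, 205 and 220.2 CPM in TNF-alpha libraries, against 122, 127 and 130.5 CPM in vehicle libraries. It rose 1.64-fold, with every TNF-alpha library above every vehicle library (0.72 ± 0.06, adjusted p = 2.8e-05). Other lid genes went the other way. Psmd6, encoding Rpn7, had 96.8, 87.6 and 89.9 CPM in TNF-alpha libraries and 124, 115 and 112 CPM in vehicle libraries (-0.36 ± 0.06, adjusted p = 0.00158). Psmd13, encoding Rpn9, had 82.2, 76 and 77.6 CPM in TNF-alpha and 102, 101 and 92.0 CPM in vehicle libraries (-0.32 ± 0.06, adjusted p = 0.00246). Neither gene's groups overlapped. Per length, Psmd11 had 72.9 CPM per kb in TNF-alpha and 44.4 CPM per kb in vehicle libraries, where it was the lowest of the 11 genes.

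Psmd8, encoding the lid subunit Rpn12, rose by 0.22 ± 0.07 (adjusted p = 0.0271), while Psmd12, encoding Rpn5, fell by 0.19 ± 0.06 (adjusted p = 0.026) and Psmd4, encoding the ubiquitin receptor Rpn10, fell by 0.18 ± 0.06 (adjusted p = 0.0266). These 3 calls depended on single libraries. The adjusted p of Psmd8 was 0.0733 and 0.0558 with TNF-alpha replicates 1 and 2 left out in turn, 0.0899 and 0.0664 with vehicle replicates 2 and 3 left out in turn, and 0.0559 with upper-quartile scaling. For Psmd12 it was 0.0819 and 0.0707 with TNF-alpha replicates 2 and 3 left out in turn, and 0.0807 and 0.057 with vehicle replicates 1 and 2 left out in turn. For Psmd4 it was 0.0865, 0.069, 0.0796 and 0.0518 without the same 4 libraries in that order. Psmd14, encoding the deubiquitinase Rpn11, had a log2 fold change of -0.16 (95% interval -0.33 to 0.01, adjusted p = 0.0922), and was past the test without TNF-alpha replicate 1 (adjusted p = 0.0457) and with the replicate block (0.0461). The scaffold genes Psmd1 and Psmd2 had -0.15 (-0.28 to -0.01, adjusted p = 0.0601) and -0.13 (-0.29 to 0.03, adjusted p = 0.147). Without vehicle replicate 3 both passed downward (adjusted p = 0.048 and 0.0472), and Psmd1 also did with upper-quartile scaling (0.0275) and with DESeq2 (0.0407). Psmd3 and Psmd7 had -0.05 and -0.02 (adjusted p = 0.561 and 0.832).

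Of the chaperones that assemble the ATPase base, the 3 encoded by genes that share the Psmd name split. Psmd5 (S5b) had 85.8, 73.0 and 79.4 CPM in TNF-alpha libraries and 51.3, 47.0 and 51.1 CPM in vehicle libraries, a 1.6-fold rise (0.67 ± 0.07, adjusted p = 9.06e-05). Psmd10, encoding gankyrin, which also binds the retinoblastoma protein, had 41.4, 39.5 and 38.5 CPM in TNF-alpha and 27.9, 27.9 and 26.9 CPM in vehicle libraries (0.53 ± 0.06, adjusted p = 1.19e-04). Both were higher in every TNF-alpha library, and both rises held in all 15 alternatives. The Psmd10 levels are shown because of its place beside Psmd5, a choice made after its values were seen. Psmd9, the third of these chaperones, fell by 0.24 ± 0.06 (adjusted p = 0.00932). Chaperones of the core particle moved less: of Psmg1 to Psmg4 and Pomp, 0 passed in either direction, against 55.5% of all genes tested. Pomp, which matures the new core, had 94.1, 89.0 and 85.1 CPM in TNF-alpha and 101.3, 92.6 and 87.5 CPM in vehicle libraries (-0.07, 95% interval -0.23 to 0.09, adjusted p = 0.434). Psmg3 had a log2 fold change of 0.27 (0.03 to 0.51, adjusted p = 0.0525) and groups that did not overlap; it passed with the stricter filter on low counts (0.0456) and with DESeq2 (0.0435).

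**Figure D3:**
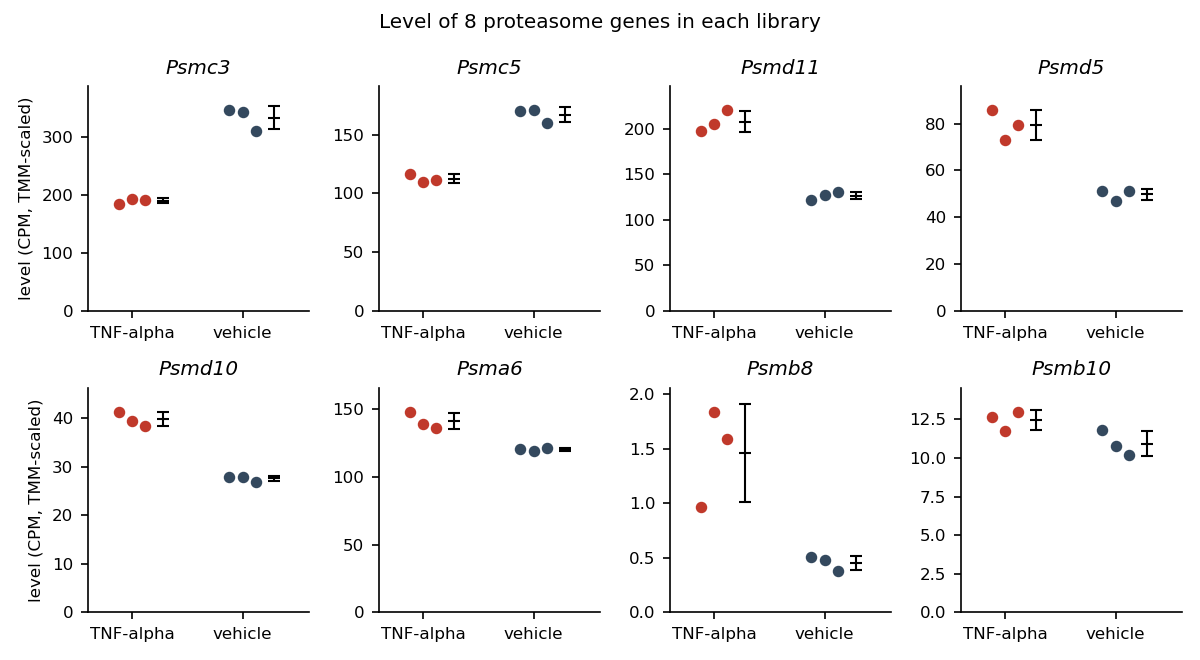
Level (TMM-scaled CPM) of 8 proteasome genes in each library, TNF-alpha left of vehicle, with the mean and SD beside each group (n = 3). The groups are apart for Psmc3, Psmc5, Psmd11, Psmd5, Psmd10, Psma6 and Psmb8, while those of Psmb10 overlap.

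Of the immunoproteasome genes, 1 of 3 rose, from a very low level. Psmb8 (chromosome 17, 34197721 to 34201454, plus strand) had 90, 158 and 133 counts in TNF-alpha libraries and 42, 45 and 35 counts in vehicle libraries. Every TNF-alpha library was above every vehicle library, with 1.46 ± 0.452 CPM in TNF-alpha and 0.455 ± 0.0658 CPM in vehicle libraries (SD, n = 3), a 3.21-fold rise (1.68 ± 0.29, adjusted p = 0.0012). Psmb8 was not tested under the stricter filter, and its exons share 186 bases with Gm20496 on the opposite strand. Psmb9 had 4.5, 7 and 13 counts in TNF-alpha and 9, 9 and 0 counts in vehicle libraries, too few to test, and the groups overlapped. Exons of Psmb9 share 212 exon bases with Tap1 on the opposite strand. Psmb10 was the most abundant of the 3, with 12.6, 11.8 and 13 CPM in TNF-alpha and 11.8, 10.8 and 10.2 CPM in vehicle libraries. Its groups overlapped (0.19, 95% interval -0.02 to 0.40, adjusted p = 0.112). Psmb11, the beta subunit of thymic epithelium, had 0.407, 0.35 and 0.43 CPM in TNF-alpha and 0.432, 0.32 and 0.359 CPM in vehicle libraries, had counts with decimals in all 6, and was not past the test (adjusted p = 0.792). The leukocyte markers Cd68, Csf1r and Lyz2 given above rose with TNF-alpha too, while Ptprc was at 0 there, and their part in the Psmb8 result was not tested.

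Each immunoproteasome gene was set against the constitutive gene whose product it replaces. Counts of Psmb8 were 1.18%, 2.43% and 2.03% of those of Psmb5 in TNF-alpha libraries and 0.585%, 0.536% and 0.508% in vehicle libraries. The log2 ratio was higher by 1.72, with groups that did not overlap. Counts of Psmb10 were 10.1%, 9.6% and 10.5% of those of Psmb7 in TNF-alpha libraries and 7.53%, 7.01% and 7.15% in vehicle libraries. This log2 ratio was higher by 0.48, with groups that did not overlap. For Psmb9 and Psmb6 the shares were 0.0394%, 0.0665% and 0.126% in TNF-alpha libraries and 0.0697%, 0.0645% and 0% in vehicle libraries, and these overlapped. Exact two-sided permutation p was 0.1 for the first and second pair, the smallest that 3 against 3 libraries allow, and 0.5 for Psmb9 to Psmb6 (0.15, 0.15 and 0.5 adjusted over the 3 pairs). The Psmb10 ratio combines a Psmb10 level that was not past the test with a Psmb7 level that fell. Per length of transcript, Psmb8 was at 1.04% of Psmb5 in TNF-alpha libraries and 0.3% in vehicle libraries.

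**Figure D4:**
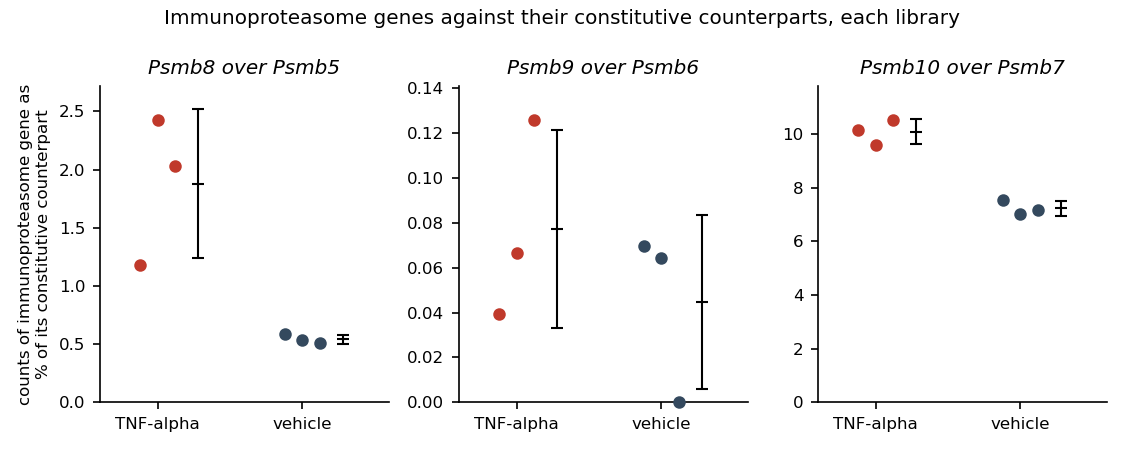
Counts of each immunoproteasome gene as a percentage of those of its constitutive counterpart in each library, TNF-alpha left of vehicle, with the mean and SD (n = 3). The TNF-alpha points lie above the vehicle points for Psmb8 over Psmb5 and Psmb10 over Psmb7, and the groups overlap for Psmb9 over Psmb6.

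Of the 5 activator genes, 0 passed the test in either direction, against 55.5% of all genes tested. Psme1 and Psme2, which encode the interferon-inducible cap PA28 alpha and beta, had 36.6, 35.0 and 34.8 CPM and 60.6, 56.4 and 55.9 CPM in TNF-alpha libraries. In vehicle libraries Psme1 had 35.4, 29.9 and 33.4 CPM and Psme2 had 60.6, 54.2 and 49.1 CPM. Both pairs of groups overlapped (0.11, 95% interval -0.06 to 0.28, adjusted p = 0.252, and 0.08, -0.11 to 0.26, adjusted p = 0.456). Psme3, encoding the nuclear activator PA28 gamma, had 137, 117 and 122 CPM in TNF-alpha and 111, 119.8 and 119.9 CPM in vehicle libraries (0.10, -0.07 to 0.26, adjusted p = 0.284). Psme4, encoding PA200, had 198, 220.1 and 217 CPM in TNF-alpha and 211, 236 and 211 CPM in vehicle libraries (-0.05, -0.22 to 0.11, adjusted p = 0.554). Psme2b, a copy of Psme2 at under 1 CPM that can share its reads, had -0.72 (adjusted p = 0.0787). The inhibitor gene Psmf1, encoding PI31, rose, with 49.0, 41.8 and 45.1 CPM in TNF-alpha libraries and 36.7, 34.7 and 35.9 CPM in vehicle libraries (0.34 ± 0.07, adjusted p = 0.00352). Psmc3ip, outside the proteasome, fell by 1.16 ± 0.14 (adjusted p = 1.54e-04) and overlaps 385 exon bases of Mlx on the opposite strand.

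Summed over all 51 rows, proteasome transcripts took 0.545%, 0.514% and 0.521% of the counts in TNF-alpha libraries and 0.606%, 0.584% and 0.557% in vehicle libraries. The groups did not overlap (exact two-sided permutation p = 0.1, and 0.167 adjusted over 10 sums). The ATPase genes, at 0.0875% ± 0.0027 in TNF-alpha and 0.117% ± 0.0055 in vehicle libraries (SD, n = 3), gave the largest part of that difference, and the beta genes without the immunoproteasome, at 0.0775% ± 0.0015 and 0.0934% ± 0.0054, gave the next. The sums of the alpha ring (exact p = 0.4), the non-ATPase genes (0.4) and the activators (0.8) overlapped between groups.

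Genes that feed or regulate the proteasome were read from lists chosen by function. Of 19 receptors, shuttles and deubiquitinases, 7 were higher, 3 were lower and 9 did not pass (median log2 fold change 0.12). The share past the test was 52.6%, near the 55.5% of all genes tested (27.6% higher and 27.9% lower). Zfand2a, a stress-induced protein that associates with the proteasome, had 113 ± 5.76 CPM in TNF-alpha and 56.2 ± 0.334 CPM in vehicle libraries (1.01 ± 0.06, adjusted p = 2.46e-06). Akirin2, which brings proteasomes into the nucleus, rose by 0.48 ± 0.05 (adjusted p = 1.17e-04). The unfoldase gene Vcp fell by 0.37 ± 0.06 (adjusted p = 0.00134) and the ubiquitin-binding Zfand5 by 0.30 ± 0.06 (adjusted p = 0.00222). Of the list's 2 subunits whose symbols fall outside the naming rule, Sem1, listed under its older symbol Shfm1, fell by 0.25 ± 0.08 (adjusted p = 0.0213) and Adrm1 was not past the test (adjusted p = 0.832), both picked after their values were seen. The Shfm1 adjusted p was 0.0589 and 0.0742 with TNF-alpha replicates 2 and 3 left out in turn and 0.0591 with vehicle replicate 1 left out.

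Nfe2l1 encodes NRF1, the factor that restores proteasome gene transcription when proteasome activity drops. It had 858, 1051 and 1029 CPM in TNF-alpha and 871, 1054 and 906 CPM in vehicle libraries, with overlapping groups (0.05, 95% interval -0.18 to 0.29, adjusted p = 0.689), and was picked after its values were seen. NRF1 is controlled by processing of the protein, which RNA levels do not show. Of the 6 genes of this arm, 1 was higher, 2 were lower and 3 did not pass (50% past the test, against 55.5% of all genes tested). Nfe2l2, encoding the related factor NRF2, had 293, 290.3 and 306 CPM in TNF-alpha and 176, 174 and 158 CPM in vehicle libraries (0.80 ± 0.07, adjusted p = 1.7e-05). Ngly1, the deglycosylase that acts on NRF1, fell by 0.30 ± 0.08 (adjusted p = 0.00999), and Sel1l, of the pathway that exports it from the endoplasmic reticulum, fell by 0.20 ± 0.07 (adjusted p = 0.0321). The Sel1l adjusted p was 0.0861 and 0.0577 with TNF-alpha replicates 1 and 2 left out in turn, and 0.0571 and 0.103 with vehicle replicates 1 and 2 left out in turn. Among 8 genes of class I peptide supply, 3 were higher, 1 was lower and 4 did not pass (50% past the test, against 55.5% of all genes tested). Tap1, the peptide transporter gene next to Psmb9, had 6.64, 5.71 and 6.17 CPM in TNF-alpha and 2.2, 1.89 and 1.79 CPM in vehicle libraries (1.66 ± 0.14, adjusted p = 2.07e-05), and Tapbp rose by 0.68 ± 0.13 (adjusted p = 0.00256). Irf1, a transcription factor of Psmb8 and Psmb9, had 56.0, 57.6 and 57.3 CPM in TNF-alpha libraries and a wide 137, 205 and 73.1 CPM in vehicle libraries (-1.28 ± 0.36, adjusted p = 0.0261). For Irf1 it was 0.0726, 0.0541 and 0.0748 with TNF-alpha replicates 1, 2 and 3 left out in turn, 0.0597 with vehicle replicate 1 left out, 0.0643 with the replicate block and 0.0662 with no filter on low counts.

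Promoter windows of 250 bases before the start were available from RefSeq (GRCm38.p6) for 43 of the 51 genes. They were searched on both strands for the kappa B pattern (GGGA, any 4 bases, CC), which is bound by NF-kB, the factor that TNF-alpha activates, and for TGACNNNGC and TGAGNNNGC, cores of the element bound by NRF1 and NRF2. The windows below are of Psmd11, which had the largest rise among the regulatory-particle genes, and of the catalytic genes Psmb5 and Psmb6; capitals mark the kappa B pattern in the first and TGACNNNGC in the others. They lie at chr11:80428365-80428614 (plus strand), chr14:54617996-54618245 (minus strand) and chr11:70525107-70525356 (plus strand).
Psmd11: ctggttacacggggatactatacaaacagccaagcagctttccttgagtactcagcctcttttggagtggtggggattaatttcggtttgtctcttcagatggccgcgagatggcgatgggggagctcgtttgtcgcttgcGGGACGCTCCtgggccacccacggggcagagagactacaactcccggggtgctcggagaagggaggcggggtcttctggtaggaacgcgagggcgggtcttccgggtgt
Psmb5: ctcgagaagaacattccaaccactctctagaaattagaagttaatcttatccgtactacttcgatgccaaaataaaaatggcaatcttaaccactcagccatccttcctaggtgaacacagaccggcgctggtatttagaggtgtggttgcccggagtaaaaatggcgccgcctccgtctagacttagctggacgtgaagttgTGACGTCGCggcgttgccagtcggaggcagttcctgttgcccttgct
Psmb6: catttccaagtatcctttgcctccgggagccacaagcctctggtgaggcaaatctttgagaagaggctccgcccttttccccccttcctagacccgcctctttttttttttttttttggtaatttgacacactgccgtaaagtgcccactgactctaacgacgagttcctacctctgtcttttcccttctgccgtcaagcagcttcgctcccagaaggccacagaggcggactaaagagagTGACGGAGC
No other pattern searched matched in these 3 windows. In Psmd11 the match stood 109 to 100 bases before the start, in Psmb5 47 to 39 and in Psmb6 9 to 1. The kappa B pattern was also found before Psma6, which rose, and before Psmb3, Psmd12 and Psmd13, which fell. Psma3, Psmc2, Psmc6, Psme2b and Psme4, which did not pass, had it too. It was absent before the other higher genes, Psmb8, Psmd5, Psmd8, Psmd10 and Psmf1. Of the lower genes with a window, Psma4, Psma5, Psmb6, Psmc1, Psmc3ip, Psmc4, Psmc5, Psmd4, Psmd6 and Psmd9 lacked it. Over the gene set the kappa B pattern was in 10 of 43 (23.3%) against 19.7% of all 27025 genes with a window, TGACNNNGC in 5 (11.6%) against 11.5%, and TGAGNNNGC in 10 (23.3%) against 16.3%. The interferon-stimulated response element (GAAA, any 2 bases, GAAA) was in 3 (6.98%; Psmb3, Psmd4 and Psmd9) against 3.46%, and CCAAT in 15 (34.9%) against 37.5%. A match is a description of letters and not of binding.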

How the data were processed

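RNA sequencing counts of 6 libraries (3 TNF-alpha, 3 vehicle) were analysed. The authors deposited estimated counts per gene symbol: between 20.1% and 21% of a library's values are not whole, although the series text describes integers. The submitters' processing notes name mm10 and GRCm38, and as tools TopHat2 2.1.1, Bowtie2 2.3.5.1, featureCounts of Subread 2.0.0 and DESeq2, without roles. How features were counted, with or without strand, is not given in the sources used here. Of the 51 rows, 22 had decimals in at least 1 library and 3 in all 6.

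Here counts were rounded to the nearest whole number, in place of the raw whole counts assumed in the plan. Low counts were removed with filterByExpr, libraries scaled with TMM, and TNF-alpha tested against vehicle with edgeR 4.0.16 (R 4.3.3; glmQLFit with robust estimation, glmQLFTest), group being the only term, at a Benjamini-Hochberg adjusted p under 0.05 over 15795 genes. Standard errors and 95% intervals come from the F statistic. The biological coefficient of variation was 12.1%. Levels are TMM-scaled CPM, and CPM per kb uses the longest principal transcript of GENCODE M21 (GRCm38), in which all 51 symbols were found. Log2 ratios used a pseudocount of 0.5 counts. For counts of 0 an upper limit of 3 counts per library was used; it covers counting error only. Ratios, shares and spreads were tested by exact permutation, two-sided. The fit was also run on simulated counts with few genes changed and a common dispersion. That setting is unlike these data, so the run says nothing about the share of false calls here. Replicates differed by more than sampling noise (chi-square per degree of freedom 22.9 to 70.1), and each counts as its own sample.

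The members and lists were chosen with earlier results of these data known. Per-library levels are given for the catalytic, thymic and testis subunits, activators, Psmf1 and Pomp, and in the Psma, Psmc, Psmd and Psmg families for up to 2 rises and 2 falls of greatest size among genes past the test, where either group averaged 5 CPM or more. From each list, up to 2 genes per direction with the smallest p are named. Paaf1, from the list of receptors, shuttles and deubiquitinases, was not found by symbol and was not analysed. A list of ubiquitin genes is not reported here. Results were recomputed under 15 alternatives: upper-quartile or median-ratio scaling, 2 other filters, DESeq2 1.42.0, limma-voom (limma 3.58.1), no robust estimation, unrounded counts, the replicate block and leaving out each library. Ratios and shares had their own (a pseudocount of 5, and other denominators).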

Additional observations from a re-analysis of the deposited data

How the results depend on the processing

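Of the 24 genes past the test, Psmc3ip included, 18 kept the call under each of the 15 alternatives that tested them. Psmb8 was not tested with the stricter filter on low counts, which left 0 immunoproteasome genes past the test. Another 6 of the 24 lost the call in at least 1 alternative, and 0 changed sign. Leaving out 1 library gave 6 to 7 higher and 12 to 19 lower genes, against 7 and 17. Without a single library, 0 to 2 alpha genes and 3 to 7 non-ATPase genes were lower, against 2 and 5, the lowest counts coming without TNF-alpha replicate 3 or vehicle replicate 1 for the alpha genes and also without TNF-alpha replicate 2 or vehicle replicate 2 for the non-ATPase genes; fewer samples enter these fits. Signs near 0 turned for genes that had not passed: leaving out 1 library gave log2 fold changes of -0.13 to 0.0032 for Psma2, -4.3e-05 to 0.091 for Psma3, -9.2e-04 to 0.22 for Psmb11, -0.061 to 0.014 for Psmc6, -0.041 to 0.020 for Psmd7, -3.7e-04 to 0.15 for Psme2, -0.087 to 0.038 for Psmg1, -0.076 to 0.033 for Psmg2, -0.0032 to 0.095 for Psmg4 and -0.0030 to 0.14 for Nfe2l1. Replicate numbers are shared by both groups. Deviations of same-numbered libraries had correlations of 0.0399, -0.051 and -0.117, and those of differently numbered libraries -0.0661 to 0.108. With so few libraries, these values cannot show whether a number marks a shared batch. With the replicate block, 7 proteasome genes were higher and 18 lower, and over all genes 4243 were higher and 4244 lower, against 4364 and 4405. Upper-quartile scaling moved the median of all genes to -0.03. Psmb8 and Psmb9 are limited by depth, at 158 and 13 counts in their highest library.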
